A study of Sus scrofa with 12 samples.

Results

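The genes described here are MAOA, MAOB, SLC18A2, DBH, DDC, ADRA1A and DRD1, which make, store, break down or sense catecholamines, and they were followed in whole ovaries of New French Yorkshire gilts, female pigs (Sus scrofa) that have not yet farrowed. The members are the 7 symbols as they stand in the deposited table of 29150 loci, and all 7 were found, on 8 loci. Each is represented by its locus with the highest mean count over the 12 libraries, a choice that concerned MAOA alone. The set was selected on measured values of these libraries: MAOB stood among the genes called higher at estrus in an earlier look at the same data, and the other members were placed around it by function. Its difference is therefore a description and supports nothing by itself. The ES group holds 6 gilts recorded with 2 estrus cycles in a row and slaughtered in the third. Their 6 NES full sisters came from the same litters, and in them no estrus was recorded although detection began at 165 days of age. The labels name no drug or other treatment for either group, and no source used here gives the age at slaughter. Total RNA of the left ovary, depleted of ribosomal RNA, gave 1 library per gilt.

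Catecholamines are made from tyrosine. DDC, the aromatic amino acid decarboxylase, forms dopamine, and DBH turns dopamine into noradrenaline inside vesicles that the transporter SLC18A2 fills. Monoamine oxidases A and B, flavin enzymes of the outer mitochondrial membrane, break the amines down. MAOA prefers serotonin and noradrenaline, MAOB prefers phenylethylamine, and both take dopamine. The ovary receives sympathetic nerve fibres, and its vessels, stroma and follicle cells carry receptors for these amines, of which ADRA1A is an adrenergic and DRD1 a dopamine receptor.

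Library totals ranged from 58140547 to 68961955 counts, and 3 counts, the upper limit that a count of 0 allows, correspond to 0.0427 to 0.0516 CPM (counts scaled to the library total), for counting error only. Levels between libraries are given as CPM scaled with TMM factors, and levels between genes as FPKM, which the authors divided by length. The ovarian markers FOXL2 and INHA were detected in all 12 libraries. A library holds the whole organ, so that fewer cells of a type and less RNA per cell cannot be told apart in any value below. ES3 and ES6 stood apart from the other libraries. The summed level of 7 of 8 macrophage markers was 1000 CPM in ES3 against 61.5 to 97.3 CPM in the other ES libraries and 49.7 to 125 CPM in NES, and that of 7 of 9 epithelial markers 247 CPM in ES6 against 10.1 to 17.5 and 3.61 to 18.2 CPM.

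Of the 7 members, 3 were expressed at a level that could be tested. MAOB had the highest length-scaled level, 7.83 ± 2.43 FPKM at estrus against 3.85 ± 1.09 FPKM in the sisters (mean ± SD, 6 libraries each). MAOA followed with 3.00 ± 0.71 and 2.47 ± 0.61 FPKM, and SLC18A2 with 1.15 ± 0.27 and 1.01 ± 0.17 FPKM. A locus was tested where its mean over the 12 libraries was at least 0.5 FPKM, and these 3 reached that minimum in each group alone. The others had means of 0.0282 FPKM (DDC), 0.0238 FPKM (DRD1), 0.0202 FPKM (DBH) and 0.00217 FPKM (ADRA1A), and among these 4 the order cannot be read at so few counts.

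MAOB (MSTRG.24558, Sscrofa11.1 chromosome X, 39025969 to 39144390, minus strand), the monoamine oxidase for phenylethylamine and dopamine, was higher in the ES ovaries. The 6 ES libraries held 33.1, 15.9, 38.7, 30.3, 19.2 and 23.7 CPM from ES1 to ES6. The 6 NES libraries held 11.6, 13.5, 9.22, 8.89, 12.4 and 18.1 CPM from NES1 to NES6. ES3, ES1 and ES4 were highest, and the groups overlapped through ES2 and NES6 alone: 5 of 6 ES libraries lay above every NES library, as at 2.5% of all loci tested. The means were 26.8 ± 8.71 CPM at estrus and 12.3 ± 3.36 CPM in the sisters (SD, n = 6 each), a log2 difference of 1.13 ± 0.24 (SE). This was 1 member called of 3 tested by edgeR's quasi-likelihood test over all loci (Benjamini-Hochberg adjusted p = 0.0479, called where under 0.05), where 0.945% of loci were called in either direction and 0.152% as higher in ES. As this contrast chose MAOB, nothing is read from that count. The log2 difference was 0.85 to 1.27 in 24 alternative fits. MAOB has 1 locus, so the fits on the locus of highest mean FPKM and on summed loci all but repeated the main one. The call was met in 8 of the 24, both of these among them. It was lost when any one of ES1 to ES6 or NES1 to NES5 was left out (log2 0.99 to 1.24, adjusted p = 0.0535 to 0.126) and kept without NES6 (1.27, adjusted p = 0.0170). With the replicate block it was lost as well (1.10, adjusted p = 0.157).

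**Figure D1:**
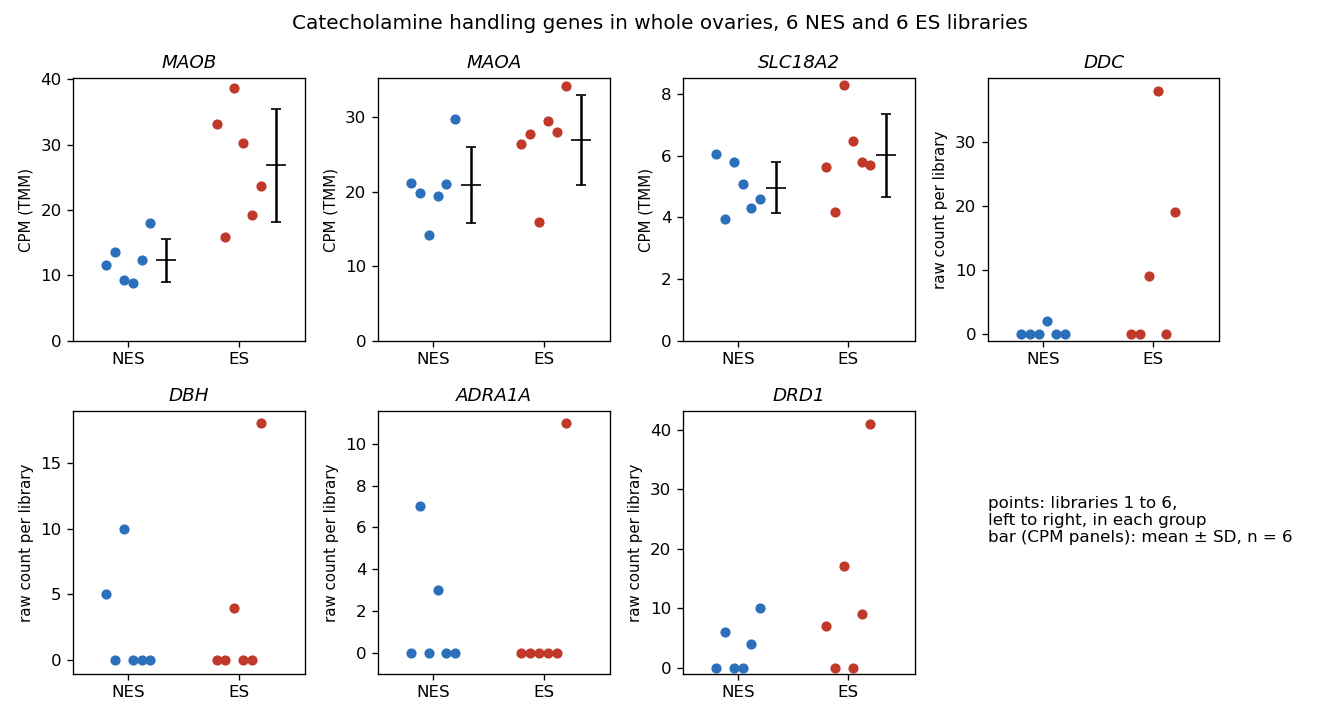
Level of the 7 members in each of the 6 NES (blue) and 6 ES (red) libraries, as CPM scaled with TMM factors for MAOB, MAOA and SLC18A2 (bars: mean ± SD) and as raw counts per library for DDC, DBH, ADRA1A and DRD1. All ES libraries except ES2 lie above the NES libraries for MAOB, whereas the last 4 genes are at 0 in many libraries and reach at most 41 counts.

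MAOA (MSTRG.24554, chromosome X, 38929232 to 39006214, plus strand), the oxidase for serotonin and noradrenaline, lies next to MAOB on the opposite strand. It ranged from 15.9 through a median of 27.9 to 34.2 CPM in ES, and from 14.2 through 20.4 to 29.8 CPM in NES. The groups overlapped widely, with the lowest ES value in ES3 and 1 ES library, ES6, above every NES library. The means were 27.0 ± 6.04 and 20.9 ± 5.06 CPM (SD, n = 6 each), a log2 difference of 0.37 ± 0.19 (SE; edgeR adjusted p = 0.367). A second, short MAOA locus (MSTRG.24555, 38980570 to 38982445) lies inside the first on the same strand and may share its reads. It had 6.17 ± 2.31 CPM at estrus and 4.95 ± 1.35 CPM in the sisters (log2 0.32 ± 0.27, adjusted p = 0.590). The next named gene on the other side of MAOB, NDP, which encodes the secreted signal norrin, had a log2 difference of -0.19 ± 0.54 (adjusted p = 0.902).

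Length-scaled MAOB exceeded MAOA in 12 of 12 libraries. The mean counts of the loci were closer, 1215 for MAOB and 1496 for MAOA, so that the order by FPKM rests on the lengths the authors assigned. The FPKM ratio of MAOB to MAOA was 1.56 ± 0.21 in NES, with a range of 1.21 to 1.80. In ES it was 2.94 ± 1.84 and ranged from 1.52 in ES2 to 6.42 in ES3. The NES libraries kept a narrow ratio while the ES libraries spread, with ES3 high in MAOB and low in MAOA.

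**Figure D2:**
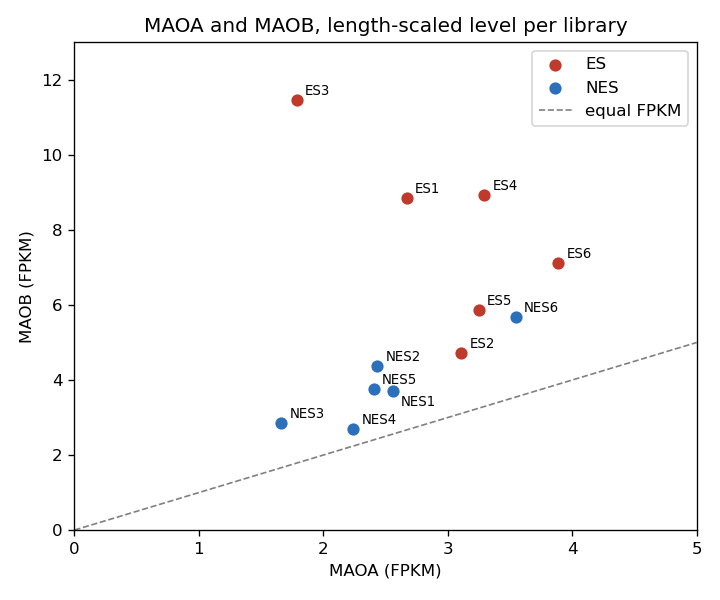
MAOB against MAOA, both in FPKM, with 1 point per library (blue NES, red ES) and a dashed line of equal FPKM. All 12 libraries lie above the line, the NES libraries at ratios of 1.21 to 1.80 and ES3 farthest from it at 6.42.

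SLC18A2 (MSTRG.8231, chromosome 14, 127357555 to 127396533, plus strand), the vesicular monoamine transporter, is the storage gene among the members. It ranged from 4.16 through a median of 5.75 to 8.29 CPM in ES and from 3.95 through 4.83 to 6.07 CPM in NES. The highest value was again in ES3, and 2 of 6 ES libraries lay above every NES library. The means of 6.01 ± 1.35 and 4.96 ± 0.84 CPM (SD, n = 6 each) gave a log2 difference of 0.28 ± 0.17 (SE; edgeR adjusted p = 0.462). It was 0.16 without ES3 and 0.092 to 0.16 in the limma fits on log2(FPKM + pseudocount). SLC18A2 also serves serotonin and histamine storage, for example in mast cells. The summed level of 5 of 7 mast cell markers was 233 to 1727 CPM in ES and 362 to 766 CPM in NES, and was lowest in ES3. In that sum KIT, which oocytes also express, reached 1571 CPM, and HDC, histidine decarboxylase, 332 CPM. The IgE receptor chains MS4A2 and FCER1A were instead highest in ES3, as SLC18A2 was, at 3.67 and 0.706 CPM, and FCER1A was at 0 in 1 library. The part of mast cells in the SLC18A2 values was not tested.

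The synthesis enzymes and the 2 receptors among the members were at or near the limit of detection. DDC (chromosome 9, 136496365 to 136571197, minus strand) had 38, 19 and 9 counts in ES4, ES6 and ES3, 2 counts in NES4 and 0 in the other 8 libraries. DBH (chromosome 1, 273202275 to 273224692, plus strand) had 18 counts in ES6, 10 in NES3, 5 in NES1, 4 in ES3 and 0 elsewhere. These enzymes thus gave reads in a few libraries of either group, and for DBH both groups held a similar total, 22 counts in ES and 15 in NES. DRD1 (chromosome 16, 49189602 to 49193707, plus strand) had 41 and 17 counts in ES6 and ES3, at most 10 elsewhere and 0 in 5 libraries. ADRA1A (chromosome 14, 10630700 to 10733071, minus strand) had 11 counts in ES6, 7 in NES2, 3 in NES4 and 0 in the other 9 libraries. ES6 held the highest count of DBH, DRD1 and ADRA1A, and it was the library with the most epithelial marker RNA. Whether that RNA has a part in these counts was not tested. In the edgeR fit without a minimum level, which called 0.0961% of 29150 loci, none of the 7 members was called. The adjusted p was 0.213 for DDC, 0.489 for DRD1, 0.910 for DBH, 0.979 for ADRA1A and 0.0650 for MAOB. In that fit 2 members had an unadjusted p under 0.05, as had 4347 of all 29150 loci. The DESeq2 fit, which kept the minimum level, called 1 member, MAOB.

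Within the groups, the 3 measured members did not rise and fall together in a way that passed a test. In the 6 NES libraries MAOA and MAOB had Pearson r = 0.84 (exact permutation p = 0.0542, adjusted 0.163) and Spearman rho = 0.71 (exact permutation p = 0.136, adjusted 0.483). Without NES3 and NES6, the farthest from the median of MAOA, r was 0.44. In the 6 ES libraries the same pair had r = -0.56 (exact permutation p = 0.235, adjusted 0.352) and rho = -0.49 (exact permutation p = 0.356, adjusted 0.533), and r = -0.064 without ES3 and ES6. MAOA and SLC18A2 had r = -0.65 in ES (exact permutation p = 0.221, adjusted 0.352) and -0.38 in NES (exact permutation p = 0.475), with rho = -0.086 in both (exact permutation p = 0.919), and r turned positive without 2 libraries, 0.40 and 0.37. MAOB and SLC18A2 had r = 0.83 in ES (exact permutation p = 0.0292, adjusted 0.163) with rho = 0.60 (exact permutation p = 0.242, adjusted 0.483), and r = 0.23 without ES2 and ES3. In NES they had r = -0.53 (exact permutation p = 0.293, adjusted 0.352), rho = -0.60 (exact permutation p = 0.242) and r = -0.76 without NES4 and NES6. Leaving out the 2 farthest libraries also narrows the range of levels, and what the relations rest on was not tested. The adjustment covers 6 relations, 3 pairs in 2 groups, all two-sided and on log2(CPM + 0.5). Whether the 2 groups differ in them was not tested.

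Beside the members, 53 further genes of catecholamine handling were listed, of which 47 had a locus of their own and 30 passed the minimum level (28 of them in each group alone). Of the 30, 21 had positive and 9 negative log2 differences. ADRB1 and ALDH1A1 passed the minimum level through ES alone, where they were higher (log2 2.33 and 1.35). Both therefore count among the 21 and in the median below, and ADRB1 also among the genes at an unadjusted p under 0.05. These figures were not taken over the 28 alone. CHGA alone was called by edgeR: 0 as higher and 1 as lower, where 0.793% of all loci tested were called as lower. The median log2 difference of the 30 was 0.24, against 0.043 over all loci tested. At an unadjusted p under 0.05 in edgeR stood 12 of the 30, CHGA among them, against 16.3% of all loci. DESeq2 called 7, among them CYB561, SMOX, ADRA2A and ADRB1 as higher and CHGA and SPR as lower, where it called 5.43% of all loci it tested.

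Of 9 synthesis and cofactor genes listed beside the members 5 were tested, 4 of them with negative log2 differences, and edgeR called none. TH, the rate-limiting tyrosine hydroxylase, had no locus of its own and so has no value here. SPR, sepiapterin reductase, which makes the tetrahydrobiopterin cofactor, ranged from 17.8 to 24.3 CPM in ES, with a median of 21.7, and from 25.96 to 32.8 CPM in NES. All 6 ES libraries lay below every NES library, as at 0.906% of loci tested, with a log2 difference of -0.43 ± 0.11 (SE; edgeR adjusted p = 0.0783). SPR was called by DESeq2 (adjusted p = 0.00405) and in 3 limma fits (0.0335 to 0.0377), 4 of 24 alternatives. PTS, the enzyme before SPR in cofactor synthesis, had 57.3 ± 12.6 CPM at estrus and 57.9 ± 8.13 CPM in the sisters (log2 -0.013 ± 0.15). GCH1, the first enzyme of cofactor synthesis, singled out after its values were seen, had a positive log2 difference (1.09 ± 0.47, edgeR adjusted p = 0.278). It ranged from 3.78 to 29.8 CPM in ES, highest in ES4, and from 4.26 to 6.05 CPM in NES. The medians were close, 5.63 CPM in ES and 5.29 CPM in NES.

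Of 5 vesicle genes listed beside SLC18A2 2 were tested, CHGA and CYB561. CHGA (MSTRG.21794, chromosome 7, 114345091 to 114359273), chromogranin A, an acidic protein packed with amines in secretory granules, was lower at estrus, with 17.9 ± 9.38 CPM against 69.6 ± 26.7 CPM in the sisters (mean ± SD, 6 libraries each). The ES libraries held 4.30 to 33.2 CPM and the NES libraries 42.6 to 113 CPM, so that the groups did not overlap. The log2 difference was -1.96 ± 0.39 (SE; edgeR adjusted p = 0.0413). CHGA, like MAOB, has 1 locus, so the fits on locus choice and on summed loci all but repeated the main one. The CHGA call was met in 12 of 24 alternative fits, both of these among them. It was lost without any one of ES2, ES4, ES5, ES6, NES1, NES2, NES3, NES4 or NES5 (adjusted p = 0.0616 to 0.107), with the replicate block (0.0859), without a minimum level (0.0545) and without ES3 and ES6 together (log2 -1.66, 0.101). Among the ES libraries CHGA was lowest in ES3 and highest in ES1, as was the summed level of 8 of 9 granulosa cell markers, with 395 and 4946 CPM against 1064 to 3412 CPM in NES. Between these extremes the match was not kept. ES6 had a sum of 4464 CPM, and the CHGA log2 difference was -1.91 without it. ES2 had a sum of 1131 CPM, and the CHGA log2 difference was -2.01 without it. INHA was the largest part of that sum on average in ES, where it ranged from 10.7 to 3533 CPM, the latter in ES1. In NES INHA averaged 478 CPM and INHBB 463 CPM. Of the 8 markers 5 had negative log2 differences (median of the 8 -0.95). INHA (1.51), CYP19A1 (1.43) and INHBA (0.16) had positive ones. IHH, a hedgehog ligand, and FST, follistatin, were singled out after their values were seen. IHH was called as lower (log2 -3.01, edgeR adjusted p = 0.0420), and FST had -2.03 (0.0519). Like CHGA, both had all 6 ES libraries below every NES library, as at 0.906% of loci tested. The part of granulosa cells in the CHGA values was not tested. CYB561, the cytochrome that keeps ascorbate reduced in the same granules for DBH, ranged from 9.49 to 72.5 CPM at estrus, highest in ES4, and from 5.85 to 11.5 CPM in the sisters (log2 1.83 ± 0.47, edgeR adjusted p = 0.0825, and 1.34 without ES4; DESeq2 adjusted p = 0.00242). CHGB and SCG2, other granins, and SLC18A1, the second vesicular transporter, were under the minimum level.

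Of 7 uptake genes 3 and of 7 breakdown genes 6 were tested, and edgeR called none. SLC6A4, the serotonin transporter, ranged from 4.66 CPM in ES3 to 283 CPM in ES4 and from 19.6 to 62.4 CPM in NES. Its medians were alike, 26.3 CPM in ES and 26.8 CPM in NES. The log2 difference was 1.61 ± 0.84 (edgeR adjusted p = 0.363), with 0.25 under the replicate block, 0.98 without ES4 and 1.08 without ES1. SLC29A4, a low-affinity monoamine transporter, had a log2 difference of -0.32 ± 0.15 (adjusted p = 0.309), while the noradrenaline and dopamine transporters SLC6A2 and SLC6A3 were under the minimum level. ALDH2, the aldehyde dehydrogenase that acts after the monoamine oxidases, averaged 61.5 ± 41.1 and 58.1 ± 16.5 CPM (log2 0.083 ± 0.39, adjusted p = 0.941). For ALDH2 the direction turned in 8 of 24 alternative fits. Among other amine oxidases, the spermine oxidase SMOX had 24.2 ± 8.45 CPM at estrus against 13.8 ± 2.54 CPM (log2 0.81 ± 0.22, edgeR adjusted p = 0.0962, DESeq2 adjusted p = 0.0147). For SMOX 5 of 6 ES libraries lay above every NES library, and at least 5 did so at 2.5% of loci tested. LOX, the collagen cross-linking lysyl oxidase, had 136 ± 27.0 and 111 ± 41.6 CPM (log2 0.28 ± 0.22, adjusted p = 0.561).

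**Figure D3:**
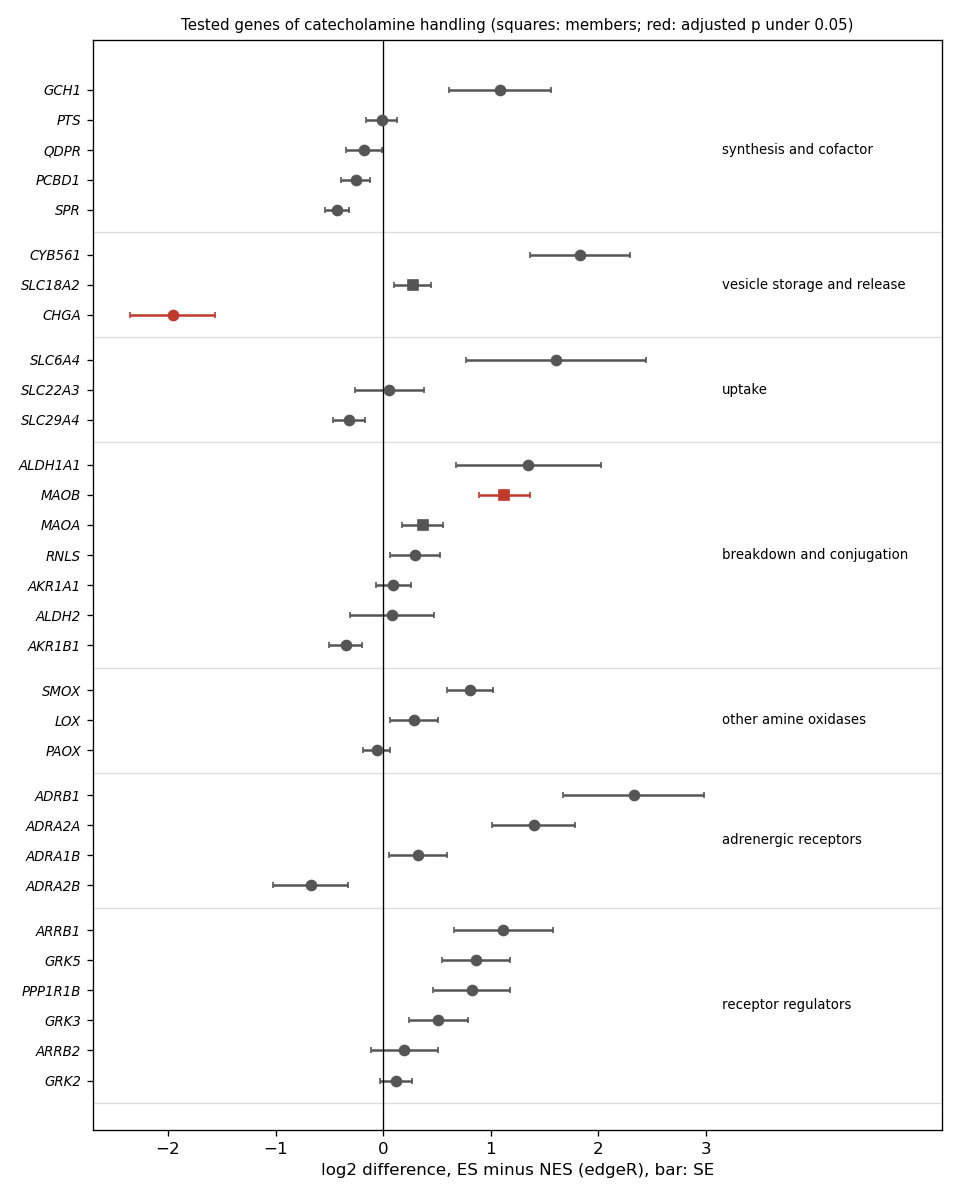
Log2 difference, ES minus NES, with its SE from edgeR for 31 tested genes of catecholamine handling, grouped by role, with members as squares and genes with an adjusted p under 0.05 in red. MAOB at 1.13 and CHGA at -1.96 are the 2 genes in red.

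Of 8 adrenergic receptors listed beside ADRA1A 5 were tested, 4 with positive log2 differences, and edgeR called none. ADRA1D, ADRA2C and ADRB3 were under the minimum level. The alpha receptor ADRA2B had 11.9 ± 6.85 CPM at estrus and 19.0 ± 3.56 CPM in the sisters (log2 -0.67 ± 0.35, adjusted p = 0.359). ADRA2A and ADRB1, chosen after their values were seen, had log2 differences of 1.40 ± 0.39 (adjusted p = 0.107) and 2.33 ± 0.65 (adjusted p = 0.111) in edgeR, and DESeq2 called both (adjusted p = 0.0113 and 0.00522). ADRB1 passed the minimum level through ES alone and reached 10.5 CPM in ES4 (1.45 without ES4). Of the dopamine receptors other than DRD1, 0 of 4 passed the minimum level. DRD2 had 1.15 ± 1.15 CPM at estrus and 0.34 ± 0.23 CPM in the sisters, and DRD3 0.29 ± 0.21 and 0.15 ± 0.14 CPM.

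All 6 tested genes that regulate such receptors had positive log2 differences, and edgeR called none. A positive sign did not always mean that most ES libraries were higher. ARRB2 and ARRB1 were singled out after their values were seen. ARRB2 (log2 0.20) had 5 of 6 ES libraries below every NES library, while ES3 reached 50.6 CPM. No other tested gene of this list had more than 1 ES library below every NES library. ARRB1 (log2 1.12) also peaked in ES3, at 319 CPM, against an ES median of 52.6 and a NES median of 45.0 CPM. GRK5, a kinase that desensitises G protein-coupled receptors, had 686 ± 328 CPM at estrus and 377 ± 118 CPM in the sisters (log2 0.86 ± 0.32, adjusted p = 0.209). GRK2, a kinase of the same kind, averaged 133 ± 35.3 and 122 ± 10.6 CPM (log2 0.12 ± 0.15, adjusted p = 0.731), and its direction turned without ES3 (-0.041).

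**Figure D4:**
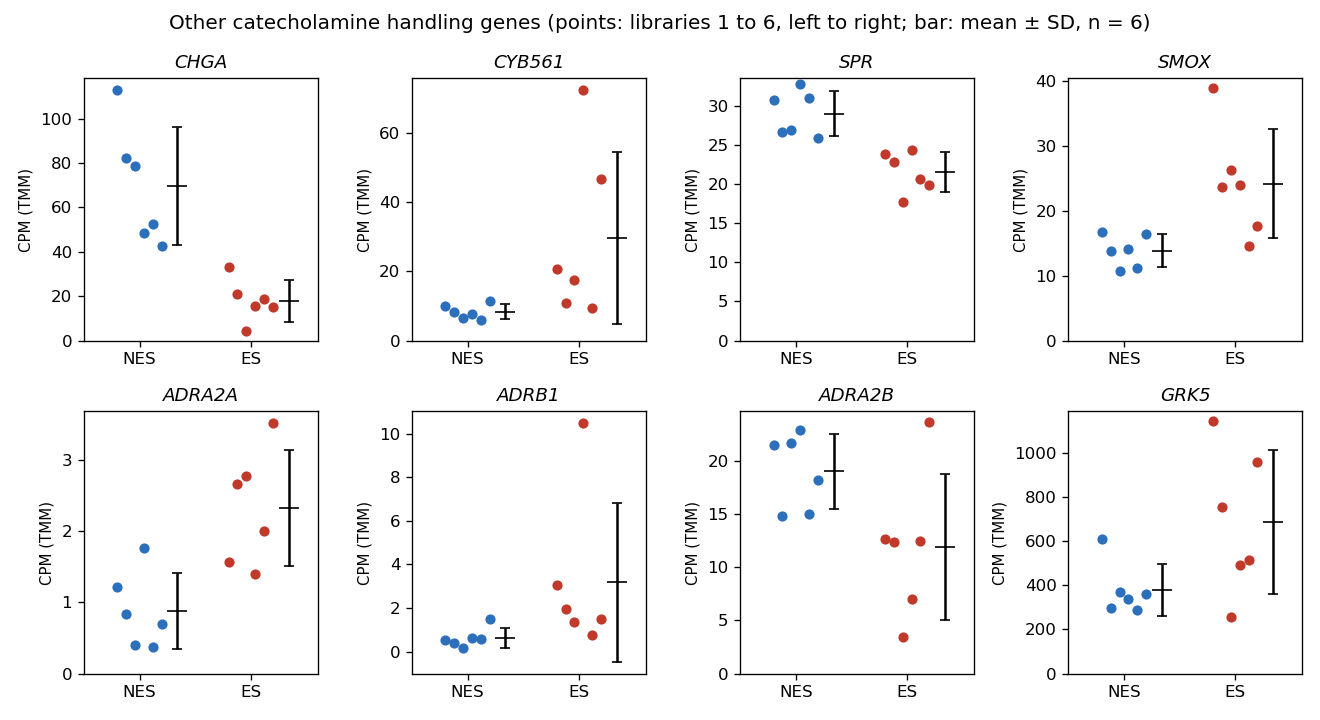
CPM of 8 other catecholamine handling genes in each of the 6 NES (blue) and 6 ES (red) libraries, with bars for mean ± SD. CHGA and SPR do not overlap between the groups, and ES4 is the highest ES library for CYB561 and ADRB1.

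The genes whose levels over the 12 libraries were most like MAOB were sought among 9234 named genes with a mean of at least 1 FPKM, by Pearson r of log2(CPM + 0.5), as a description. KDM7A, a histone demethylase, came first (r = 0.94 over 12 libraries, 0.85 within ES and 0.90 within NES). TOX4, a chromatin protein, had r = 0.94 (0.97 and 0.61), RETSAT, a retinol saturase, 0.94 (0.86 and 0.86), UGP2, which makes UDP-glucose, 0.94 (0.84 and 0.96), and ABCC3, an organic anion exporter, 0.93 (0.88 and 0.79). All 5 had positive log2 differences, from 0.31 for TOX4 to 1.22 for ABCC3, and edgeR called none (adjusted p = 0.0908 to 0.168). DESeq2 called KDM7A (adjusted p = 0.0159), RETSAT (0.0426) and ABCC3 (0.00872). MAOA was most like RAI2 (r = 0.92) and TFPI2 (0.91), and SLC18A2 most like VAMP3 (0.91), a vesicle membrane protein, and CSNK2A2 (0.89). All such r share the libraries and their makeup of cells.

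Markers of sympathetic neurons, the cells best known for making noradrenaline, were low. Besides DBH, 12 of 14 were measured. Their summed level was 32.5 to 40.1 CPM in ES and 23.4 to 55.8 CPM in NES, of which SYT1 gave 18.8 to 51.5 CPM. NPY was at 0 in 10 libraries, SNAP25 and SLC6A2 in 7 and STMN2 in 5. The summed level of 8 of 9 steroidogenic and luteal markers was 558 to 4391 CPM in ES and 636 to 978 CPM in NES, highest in ES1, which ranked second for MAOB, while ES3, first for MAOB, had 635 CPM. Of its 7 tested markers 6 had positive log2 differences (median of the 7 1.54). PTGFR, the prostaglandin F receptor, was singled out after its values were seen. It ranged from 60.8 to 180 CPM in ES and from 14.0 to 55.6 CPM in NES (log2 1.54, edgeR adjusted p = 0.0564). At least 5 of 6 ES libraries lay above every NES library, as at 2.5% of loci tested. PTGFR was highest in ES3, as MAOB was, but the other summed markers were not. STAR, LHCGR and PRLR were highest in ES6, and CYP11A1, CYP17A1 and SCARB1 in ES1. INSL3, with a log2 difference of -1.01, was highest in NES5. Macrophage markers were at their highest in ES3 as well. The part of these cell types in the MAOB values was not tested, and without ES3 and ES6 together MAOB had a log2 difference of 1.01 (adjusted p = 0.111).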

How the data were processed

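RNA-seq of 12 left ovaries (6 ES, 6 NES, headed Non_ES in the table) was used, 1 library per gilt. Strand-specific libraries were made from Trizol-extracted RNA after ribosomal RNA depletion, per the labels' protocols. The deposited table holds raw counts and FPKM per locus, which the authors made before deposit; build Sscrofa11.1 and the tools HISAT2, TopHat, cutadapt and FastQC are listed, without versions, per the submitters' processing notes. Which program counted reads, with which annotation and strand setting, is not given in the sources used here.

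Counts were fitted over all 20421 loci with a mean of at least 0.5 FPKM by edgeR 4.0.16 (TMM scaling, quasi-likelihood test, 2 groups), with Benjamini-Hochberg adjustment. DESeq2 1.42.0, limma 3.58.1 on log2(FPKM + 0.1, 0.5 or 1), other scalings and filters, a replicate block and left-out libraries were alternatives. So were the locus of highest mean FPKM and counts summed over the loci of a symbol, which all but repeat the main fit for a symbol with 1 locus. The scripts were tested on simulated data. P-values measure the spread between these gilts. The block used the numbers in the titles, and as no label ties these to litters, the litters entered no fit. With the strand setting unknown, reads of overlapping loci, such as both MAOA loci, may be shared. Of 5465 loci named by an Ensembl ID alone, 1036 matched a symbol in the name table.

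Named were all members, the 2 genes of highest mean CPM and any called gene of each pathway list, the 5 symbols most like MAOB and the 2 most like MAOA and SLC18A2; 2 of these genes are counted in the lists but not reported here. The members and lists were chosen with earlier results of these data known. No sequence is printed.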

Additional observations from a re-analysis of the deposited data

Results flagged for a closer look

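Single libraries stood apart from the other 5 of their group in 9 of 56 groups examined (28 genes), where the gap to the nearest library exceeded 0.625 of the group's range. About 1 in 20 would do so by chance if the values were normally distributed. CPM need not be, and the 56 groups share the same 12 libraries, so nothing is read from the count of 9.

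ADRB1 had 10.5 CPM in ES4, with the next ES library at 3.08 CPM, and 1.49 CPM in NES6 (next 0.629). DRD2 had 3.43 CPM in ES6 (next 0.989) and 0.791 CPM in NES6 (next 0.316). The receptor kinase GRK5 had 607 CPM in NES1 (next 371). GRK2 had 202 CPM in ES3 (next 136) and 101 CPM in NES5, the lowest (next 124). RAI2, the gene most like MAOA, was lowest in ES3 at 8.79 CPM (next 18.1). TOX4, one of the genes most like MAOB, was lowest in NES3 at 31.5 CPM (next 36.2). No level of MAOA, MAOB or SLC18A2 stood apart by this measure. The causes were not tested.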

How the results depend on the processing

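Against 193 loci, 1 pathway gene and 1 member called by edgeR, DESeq2 called 1065 loci and 7 pathway genes. Without a minimum level edgeR called 28 of 29150 loci (4347 at an unadjusted p under 0.05), 0 pathway genes (17 at an unadjusted p under 0.05) and 0 members (2), with MAOB at a log2 difference of 1.12. With limma on log2(FPKM + 0.5), log2(FPKM + 0.1) and log2(FPKM + 1), 330, 322 and 337 loci and 2, 2 and 2 pathway genes were called. The first 2 called 0 members (1 at an unadjusted p under 0.05, of 2977 and 2981 loci), with MAOB at 0.92 and 0.99, and the last kept MAOB. Without ES3 and ES6 edgeR called 1 of 20421 loci (2854 at an unadjusted p under 0.05), 0 pathway genes (16 at an unadjusted p under 0.05) and 0 members (2), with MAOB at 1.01. Leaving out 1 library gave 0 to 415 loci (0 without ES2, 3625 at an unadjusted p under 0.05; 415 without NES6), 0 to 1 pathway genes and 0 to 1 members, and MAOB at 0.99 to 1.27. The cause was not tested.

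With the replicate block edgeR called 0 loci (2708 at an unadjusted p under 0.05), 0 pathway genes (12) and 0 members (2), with MAOB at 1.10 (adjusted p = 0.157). Same-numbered libraries had correlations of deviations from -0.07 to 0.29, and 2 of 6 pairs were over 0.1. Of the 6 ES libraries 2 correlated best with the NES library of the same number. With 6 pairs and no reference for libraries known to be unpaired, these values cannot tell whether the numbers mark litters.

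Reversed directions concerned 3 genes near 0. ALDH2 was at -0.18, -0.22 and -0.15 in the limma fits, -0.13 with the block, -0.054 without ES3 and ES6, and -0.19 to 0.26 without 1 library. PTS was at 0.047 without ES3 and ES6 and -0.13 to 0.046 without 1 library. GRK2 was at -0.024 without ES3 and ES6 and -0.041 to 0.18 without 1 library. MAOA and SLC18A2 kept a positive difference and no call in all 24 alternatives. At 0.0427 to 0.0516 CPM for 3 counts, depth limits DBH, DDC, ADRA1A and DRD1.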
